A study of Rattus norvegicus with 9 samples.

Results

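Microtubule motor genes were taken from the dendritic transcriptome of rat hippocampal neurons as every gene whose symbol begins with Kif or Klc and a number (kinesin heavy and light chains), with Dync or Dynl (dynein chains), or with Dctn and a number (dynactin subunits), and that at least 1 probe set names without any other gene. There were 52 such genes among the 14217 genes measured, read by 83 probe sets. The kinesins numbered 31, of which 27 were heavy chains and 4 light chains, with 59 probe sets. Dynein and dynactin numbered 21, of which 16 were dynein chains and 5 dynactin subunits, with 24 probe sets. The gene value was the median log2 signal of its probe sets, and each gene was placed on each array by its percentile of signal among all genes. Signal depends on how well each probe binds, so percentiles are ranks of signal and not amounts of RNA.

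Kinesins are motors that walk along microtubules, most of them toward the plus end, while cytoplasmic dynein walks toward the minus end. Kinesin-1 is built of heavy chains that carry the motor and light chains that hold cargo, and dynein is a large complex of heavy, intermediate, light intermediate and light chains that needs dynactin, an associated complex, to move over long distances. In dendrites microtubules run in both directions, and kinesins and dynein together move mitochondria, receptors, endosomes and mRNA granules.

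The 9 arrays each held RNA amplified from 1 pool of dendrites of Sprague-Dawley rats. Neurons came from the hippocampus at embryonic day 19, stayed in culture for 14 days, were given no treatment, and are labelled pyramidal. The 3 groups were pools of 100, 200 and 400 dendrites with 3 arrays each, which the labels call biological replicates and the labels do not tie to cultures or animals. Dendrites were cut off with a glass pipette, many cells gave to 1 pool, and axons could not be told from dendrites by their shape, so that each pool may hold some axon. In pooled RNA, fewer dendrites that hold an mRNA and less of it in each dendrite cannot be told apart. Of 15 measured markers of pyramidal neurons, 12 lay above the 50th percentile, with a median percentile of 80.0, beside 48.5 for interneuron, 61.8 for astrocyte, 56.8 for oligodendrocyte lineage, 52.6 for endothelial, 28.2 for mural cell and fibroblast and 30.4 for microglial markers. The 3 measured nuclear-retained RNAs, which mark RNA of the cell body, had a median percentile of 92.7, and 18 of 52 genes of other organs lay above the 50th percentile (median 33.7). The top 5% of signal held 3 of these 52 (5.77%, beside 5.0% of all genes), namely Ctrb1, Cela1 and Lhb. Between any pair of arrays, Pearson's r ran from 0.672 to 0.869 over all genes and from 0.706 to 0.916 over the motor genes. The array of 400 dendrites, replicate 1, had the lowest median r with the others (0.752 over all genes).

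Dynein and dynactin genes ranked higher in signal than kinesin genes. The median percentile over 9 arrays was 67.1 for dynein and dynactin and 47.5 for kinesins, beside 49.9 for all genes. Of dynein and dynactin genes, 16 of 21 lay above the 50th percentile, against 14 of 31 kinesins, where 49.9% of all genes did. The top 5% of signal, which holds 5.0% of all genes by its construction, held 5 of the 52 motor genes (9.62%). Those 5 were Dctn6, Dynlrb2, Dynlt5, Dync1i1 and Dynll2, and 0 of 31 kinesins were among them. With the probe set of highest mean as the gene value, Dync1i1 (94.0 percentile) left this set and Klc1 (99.2) entered it, which left 4 dynein and dynactin genes and 1 kinesin. Entry to the top 5% depended on the number of probe sets. With the median, it held 624 of 9692 genes with 1 probe set and 87 of 4525 with more. With the probe set of highest mean, it held 326 and 385 of them. More than 1 probe set was had by 16 of 31 kinesins and 3 of 21 dynein and dynactin genes, so the 2 sides did not share 1 background.

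With the median of probe sets, the order was the same on every array. The median percentile of kinesins ran from 36.7 to 51.7 over the 9 arrays and that of dynein and dynactin from 56.7 to 75.1. The difference between them was above 0 on 9 of 9 arrays, lowest on replicate 1 of 200 dendrites (7.77 percentile points), highest on replicate 1 of 400 dendrites (32.2) and 25.7 at the median array. These 9 values share their probe sets and no test was made over the genes.

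**Figure D1:**
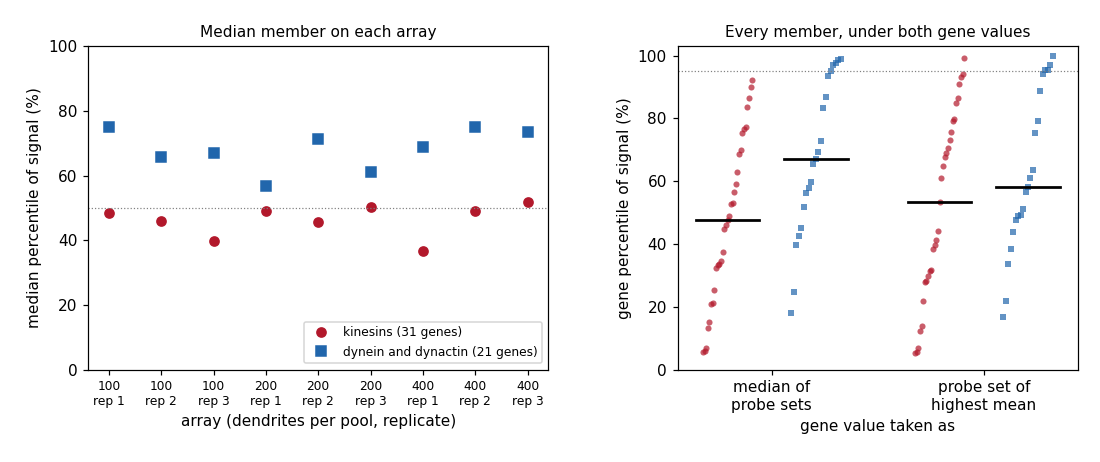
Left, the median percentile of signal of the 31 kinesin genes (red circles) and the 21 dynein and dynactin genes (blue squares) on each of 9 arrays, where the dotted line is the 50th percentile. Right, the percentile over 9 arrays of every gene (red, kinesins; blue, dynein and dynactin) where a gene was given either the median over its probe sets or the probe set of highest mean (black bars, medians; dotted line, 95th percentile). The blue squares lie above the red circles on all 9 arrays, and the medians move from 47.5 and 67.1 to 53.3 and 58.1 with the other gene value.

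The size of this gap depended on how a gene value was formed. With the probe set of highest mean in place of the median, the median percentile was 53.3 for kinesins and 58.1 for dynein and dynactin. The difference then ran from -9.68 to 25.8 percentile points, with a median of 10.8, and was above 0 on 8 of 9 arrays. Above the 50th percentile were then 16 of 31 kinesins and 13 of 21 dynein and dynactin genes. Kinesins had more probe sets per gene, and only 15 of 31 had 1 probe set, against 18 of 21 dynein and dynactin genes. Among genes with 1 probe set, where both gene values are the same probe set, the median percentile was 37.4 for the 15 kinesins and 66.3 for the 18 others, and the difference was above 0 on 9 of 9 arrays (7.91 to 38.6). For genes with more than 1 probe set it was 54.8 for 16 kinesins and 95.1 for 3 dynein and dynactin genes. Counted by probe set, the medians were 46.2 for 59 kinesin and 68.2 for 24 dynein and dynactin probe sets.

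**Figure D2:**
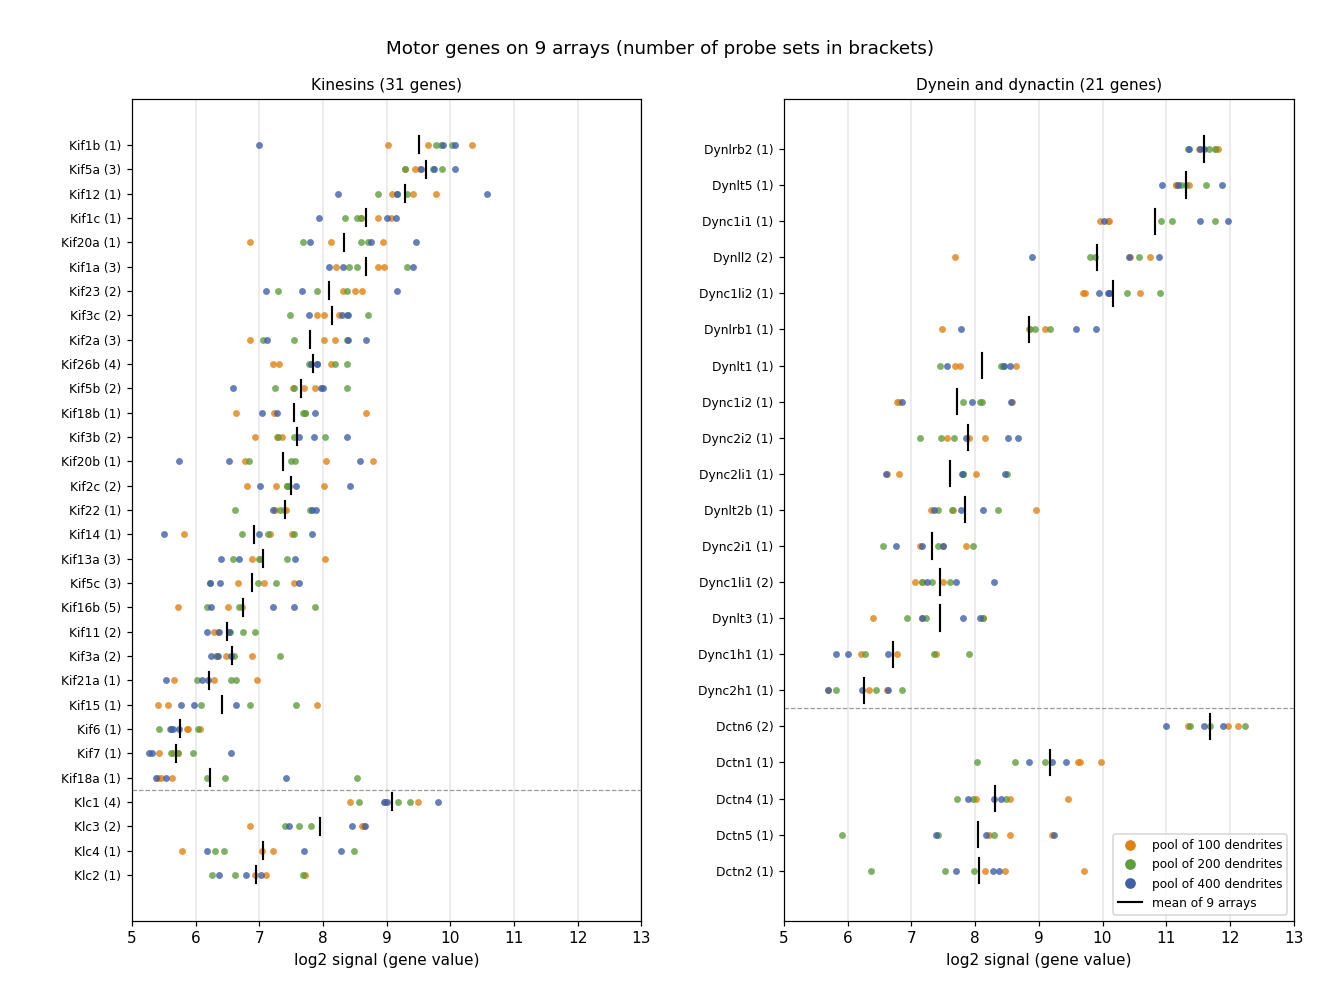
Log2 signal of each of the 52 motor genes on 9 arrays, with a colour for each pool size and a black bar at the mean, ordered by percentile within heavy and light kinesin chains (left) and within dynein and dynactin (right), which dashed lines part. Dynlrb2 and Dynlt5 sit between 10.94 and 11.87 on every array, whereas Kif1b has 1 array at 6.99 far below the others.

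Dynein light chains were the highest placed group of the dynein complex. Of 7 measured light chain genes, 6 lay above the 50th percentile and 3 in the top 5%, with a median percentile of 83.2. With the probe set of highest mean, 5 lay above the 50th and the median was 75.4, and the same 3 stayed in the top 5%. The median of all 16 dynein chains moved from 58.8, with 11 above the 50th, to 50.1, with 8 above it (all genes, 49.7). Dynlrb2, a roadblock light chain that joins the intermediate chains, read 11.52, 11.82 and 11.78 in pools of 100 dendrites, 11.67, 11.77 and 11.34 in pools of 200, and 11.36, 11.59 and 11.53 in pools of 400. Dynlt5, a gene of the Tctex light chain family, gave 11.36, 11.15 and 11.15, then 11.63, 11.23 and 11.31, then 11.87, 10.94 and 11.19 in the same order of pools. Both lay in the top 5% on 9 of 9 arrays, and the ranges of their pool sizes overlapped.

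Dynll2, the LC8 light chain that also binds many partners outside dynein, was in the top 5% by its median rank but on 5 of 9 arrays. Its log2 signal was 7.68, 10.74 and 10.43 with 100 dendrites, 9.81, 9.88 and 10.57 with 200, and 8.89, 10.88 and 10.42 with 400. Replicate 1 of 100 dendrites was the low array, and the gene had the largest spread of the 52 (residual SD between arrays of a pool size, 1.17). The other roadblock gene, Dynlrb1, ranked at 83.2. The remaining Tctex genes ranked at 72.7 for Dynlt1, 51.7 for Dynlt2b and 39.7 for Dynlt3. The paralog of Dynll2, Dynll1, was read by 1 probe set that also names Dynll1l1 (9.34 ± 0.75, SD, n = 9), and it was left out by the rule.

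Of the 5 core chains of cytoplasmic dynein 1, the form that carries cargo in neurons, 3 lay above the 50th percentile. They were Dync1i1 (96.9) and Dync1i2 (59.9), the intermediate chains that bind dynactin, and Dync1li2 (93.6), a light intermediate chain that binds cargo adaptors. The other light intermediate chain, Dync1li1, ranked at 42.6. The heavy chain Dync1h1, which holds the motor itself, ranked at 24.8, with log2 signals of 6.78, 7.38 and 6.21 in pools of 100, 6.27, 7.35 and 7.91 in pools of 200, and 5.82, 6.63 and 6.00 in pools of 400. The 1 probe set for it was thus below the median of all genes on most arrays, though the protein is a part of every dynein 1 complex, and the signals of different probe sets cannot show the ratio of the chains.

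Cytoplasmic dynein 2, which serves transport in cilia, had 4 genes measured, with a median percentile of 50.8 and 2 above the 50th (43.1 and 0 with the other gene value). Its intermediate chain Dync2i2 ranked at 57.7, its light intermediate chain Dync2li1 at 56.4, the other intermediate chain Dync2i1 at 45.1, and the heavy chain Dync2h1 at 18.1. Dync2h1 stood at 6.34, 5.69 and 6.61, at 6.85, 6.45 and 5.81, and at 5.69, 6.63 and 6.22 in pools of 100, 200 and 400 dendrites, so the pool sizes overlapped. Both heavy chains were the lowest of the 21 dynein and dynactin genes in rank.

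All 5 dynactin subunits with a Dctn symbol that were measured under the rule lay above the 50th percentile, with a median of 69.3. With the probe set of highest mean the median was 61.1, and all 5 stayed above the 50th. Dctn6 and Dctn5, which cap the pointed end of the short actin-like filament together with Dctn4, ranked at 98.8 and 67.1, and Dctn4 at 69.3. Dctn1, the subunit that reaches out to dynein and microtubules, ranked at 86.7, and Dctn2, or dynamitin, which links that arm to the filament, at 65.5. Dctn6 read 12.12, 11.97 and 11.34 with 100 dendrites, 11.38, 11.69 and 12.24 with 200, and 11.00, 11.89 and 11.59 with 400. It was in the top 5% on 9 of 9 arrays, but its gene value lies midway between a probe set at 14.68 ± 0.15 and another at 8.70 ± 0.82 (SD, n = 9). The lower of them alone ranked at 77.2 among all probe sets. Dctn3 was read by 1 probe set that also names Dctn3l1 (9.48 ± 0.72), and was not measured under the rule.

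Other subunits of the dynactin complex carry names outside the rule. All 6 were measured, 5 of them above the 50th percentile, with a median percentile of 76.6. The capping protein genes Capza2 (89.8) and Capzb (85.1) were the highest. The actin-related proteins Actr1a (37.7), which builds most of the filament, and Actr1b (61.8) were the lowest.

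Kinesin heavy chains had a median percentile of 47.5. Kif1b, a kinesin-3 that carries synaptic vesicle precursors and mitochondria, was the highest at 92.2, Kif5a, a kinesin-1 heavy chain of neurons, followed at 90.1, and Kif12, known from epithelia of kidney and liver, stood at 86.4. Kif1b read 10.34, 9.65 and 9.02 in pools of 100, 9.77, 10.03 and 9.85 in pools of 200, and 6.99, 9.89 and 10.07 in pools of 400. Kif5a read 9.45, 9.29 and 9.52, then 9.86, 9.72 and 9.28, then 10.07, 9.54 and 9.75. For Kif12 the values were 9.09, 9.42 and 9.77, then 9.16, 9.32 and 8.86, then 10.58, 8.23 and 9.16. Kif5a was steady, between the 87.6 and the 94.0 percentile on every array, whereas Kif1b dropped to the 32.9 percentile on replicate 1 of 400 dendrites and Kif12 was highest on that same array. The probe set for Kif1b is the 1 that names it alone, and 4 further probe sets that name it together with Cenps, Pgd and Cort ranged from 7.35 to 10.6 in mean log2 signal and were not used.

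At the low end, Kif18a, which holds chromosomes at the spindle equator, ranked at 5.58, and Kif7, a ciliary kinesin of Hedgehog signalling, at 5.77. Kif18a read 5.46, 5.41 and 5.63 with 100 dendrites, 6.46, 6.17 and 8.54 with 200, and 5.53, 7.42 and 5.38 with 400. Kif7 read 5.72, 5.42 and 5.64, then 5.73, 5.62 and 5.96, then 6.55, 5.27 and 5.31. Kif18a was low on most arrays but reached the 75.3 percentile on replicate 3 of 200 dendrites, while Kif7 did not pass the 21.8 percentile on any array.

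By family, the 3 kinesin-1 heavy chains had a median percentile of 53.0, with Kif5a at 90.1, Kif5b at 53.0 and Kif5c at 33.2. In kinesin-2, a family of ciliary and dendritic transport, 3 of 4 listed genes were measured (median 48.9), with Kif3c at 68.7, Kif3b at 48.9 and Kif3a at 20.9. Among 6 measured kinesin-3 genes the median was 56.3. The Kif1 genes of this family stood high (Kif1b 92.2, Kif1c 77.3, Kif1a 75.2), and Kif14, Kif13a and Kif16b stood at 37.4, 33.7 and 25.4. Kinesin-13, which takes microtubules apart, had Kif2a at 63.0 and Kif2c at 46.1, and kinesin-4 had Kif21a at 15.3 and Kif7 at 5.77. With the probe set of highest mean, the kinesin-1 median moved to 93.1, with Kif5c at 94.3, Kif5a at 93.1 and Kif5b at 79.9, so that Kif5c went from the lowest of the 3 to the highest. That of kinesin-2 moved to 73.1, with Kif3c at 90.9, Kif3b at 73.1 and Kif3a at 27.9, in the same order as before. Each of these 6 genes had more than 1 probe set.

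How kinesins known for transport in neurons stood to those known for cell division depended on the gene value. With the median of probe sets, the 10 measured transport kinesins had a median percentile of 51.0 with 5 above the 50th, and the 10 measured mitotic kinesins a median of 45.5 with 3 above it. With the probe set of highest mean, the medians were 77.8 (7 above the 50th) and 39.1 (3 above it). Of the transport kinesins 8 had more than 1 probe set, against 3 of the mitotic ones. Kif20a and Kif23, both of which act in cytokinesis, were the highest mitotic kinesins at 76.6 and 70.0 with the median of probe sets. Markers of dividing cells had a median percentile of 39.8, with 7 of 18 above the 50th and a range of array medians from 28.5 to 56.9. Among them Mki67 stood at 78.6, Top2a at 27.2 and Cdk1 at 26.8, and the part of dividing cells in the mitotic kinesin signals was not tested.

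The 4 kinesin light chains had a median percentile of 45.6. Klc1, the main light chain of neurons, stood at 83.5, Klc3 at 56.5, Klc4 at 34.7 and Klc2 at 32.2. Klc1 read 8.43, 8.98 and 9.49, then 9.37, 9.17 and 8.57, then 9.80, 9.01 and 8.96 in pools of 100, 200 and 400 dendrites. Klc3 read 8.65, 6.86 and 8.61, then 7.63, 7.40 and 7.81, then 8.66, 7.47 and 8.46. In both genes the values of the 3 pool sizes overlapped. For Klc4 the values were 7.22, 5.78 and 7.04, then 8.49, 6.44 and 6.31, then 6.18, 8.28 and 7.70, and for Klc2 they were 6.93, 7.72 and 7.10, then 7.69, 6.61 and 6.25, then 6.79, 6.37 and 7.03. Klc4 was the more variable of them, with an SD over 9 arrays of 0.96 against 0.52 for Klc2.

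Kinesins outside the rule gave a mixed picture. The minus-end directed kinesins Kifc3 and Kifc2 ranked at 84.2 and 83.3, Kifap3, the cargo subunit of kinesin-2, at 83.0, Kifc1 at 46.3, and Cenpe, a kinetochore kinesin, at 4.74. Of 29 measured adaptors and regulators of the motors, 16 lay above the 50th percentile (median 57.0). Bicd2, which ties dynein to dynactin and cargo, stood at 99.3 with 12.10 ± 0.23 log2 units, and Jakmip1, a partner of kinesin-1, at 94.1. The lowest of them were Rab11fip3, an endosome adaptor of dynein, at 1.82 and Hook1, a dynein adaptor, at 3.32. Of 7 measured axonemal dyneins, the motors of beating cilia, 5 lay above the 50th percentile, from Dnai1 at 82.1 and Dnah7 at 70.4 down to Dnah2 at 43.1 and Dnah1 at 32.6.

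Probe sets of 1 motor gene often disagreed. Among the 19 motor genes with more than 1 probe set, the gap between the lowest and the highest probe set mean had a median of 1.81 log2 units and ran from 0.32 for Kif11 to 5.99 for Dctn6. Over all 4525 genes with more than 1 probe set the median gap was 1.54. With 2 probe sets, the median gap was 1.52 for 11 motor genes and 1.20 for 3061 genes in all. A gap of at least 2 log2 units was seen in 8 of 19, namely Dctn6, Kif5c, Klc1, Kif3c, Kif5b, Kif26b, Kif3b and Dynll2.

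Wide gaps occurred in both chains of kinesin-1. Percentiles of single probe sets are given here among all probe sets, not among genes. Kif5c had a probe set at 10.86 ± 0.31 (96.1 percentile) and another at 5.98 ± 0.40 (11.9 percentile), and Klc1 one at 12.59 ± 0.45 (99.5) and one at 8.16 ± 0.81 (67.5, SD, n = 9). With the probe set of highest mean as the gene value, Klc1 was the 1 kinesin in the top 5% of genes, and Kif5c ranked at 94.3 among genes. Across arrays the lowest and the highest probe set of a gene had a median r of -0.02, from -0.59 for Kif2a to 0.87 for Dynll2, and r was under 0 in 10 of 19. Dynll2 (0.87) and Kif23 (0.75) were the pair whose probe sets followed each other most closely over the 9 arrays. Probe sets of 1 gene can read different ends or splice forms of its mRNA, which the values here do not separate.

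**Figure D3:**
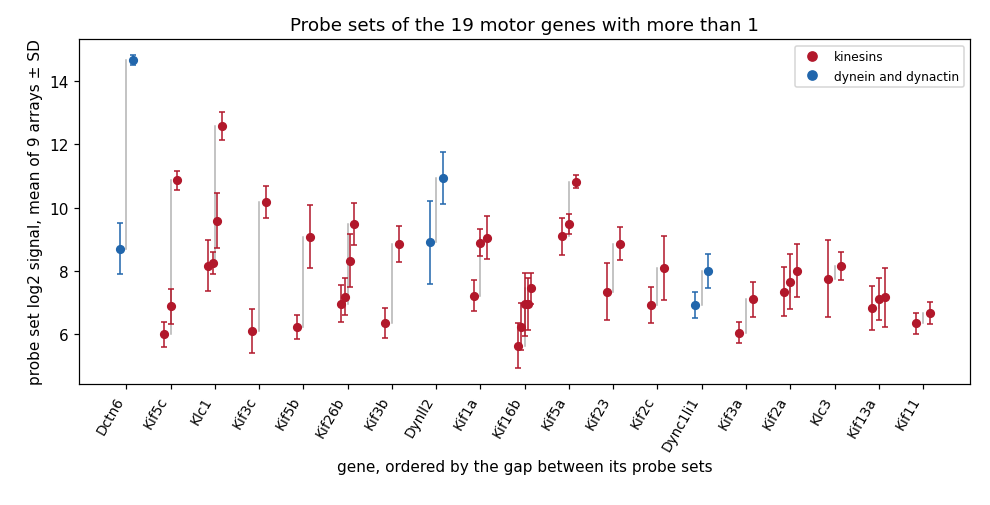
Mean log2 signal of each probe set of the 19 motor genes with more than 1, with bars for the SD over 9 arrays, red for kinesins and blue for dynein and dynactin, ordered by the gap between probe sets. The 2 probe sets of Dctn6 lie 5.99 log2 units apart and those of Kif11 0.32.

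Spread between arrays of a pool size was alike for kinesins and for dynein and dynactin. The median residual SD was 0.56 log2 units for kinesins, 0.55 for dynein and dynactin and 0.56 for all genes. The 3 steadiest genes were Kif11, a spindle motor (0.17), Dynlrb2 (0.17) and Kif6, a kinesin of motile cilia (0.20). Kif11 read 6.53, 6.29 and 6.35 with 100 dendrites, 6.93, 6.74 and 6.54 with 200, and 6.53, 6.36 and 6.18 with 400, and Kif6 read 5.88, 5.87 and 6.06, then 6.03, 5.42 and 5.60, then 5.74, 5.61 and 5.65. These kinesins were steady at a low signal (21.3 and 6.97 percentile), Dynlrb2 at a high one. Kif11 is the median of 2 probe sets, which each spread more. Their SDs over 9 arrays were 0.32 and 0.34 (r = -0.02 between them), against 0.23 for the gene value. The 3 of largest spread were Dynll2 (1.17), Kif1b (1.07) and Kif20b, a motor of cytokinesis (1.06).

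Whether the amount of starting material moved the motor genes was asked by comparing pool sizes. For 400 against 100 dendrites, 0 of 52 motor genes passed an adjusted p of 0.05 (limma, Benjamini-Hochberg over 14217 genes), as did 0.0% of all genes. The same held for 200 against 100 dendrites, for 400 against 200 and for the slope over doublings of pool size, with 0 of 52 and 0.0% each time. At an unadjusted p under 0.05 stood 1, 5 and 1 of 52 motor genes in those 3 comparisons and 2 for the slope, where 2.41%, 3.03%, 2.30% and 2.73% of all genes did. Leaving out 1 array changed these counts. For 400 against 100 dendrites the count was 0 without any 1 of the arrays of 100, without replicate 2 of 200 or without replicate 3 of 400, and 3 without replicate 1 of 400. For 200 against 100 it was 2 without replicate 2 of 100 or replicate 3 of 200, and 3 without replicate 3 of 100 or replicate 1 of 200. For 400 against 200 it was 0 without replicate 3 of 200 or replicate 3 of 400, 2 without replicate 1 of 200 and 3 without replicate 2 of 400. For the slope it ran from 0, without any 1 array of 100 or replicate 1 or 2 of 200, through 1, without replicate 2 or 3 of 400, to 3 without replicate 1 of 400. Counts over all 14217 genes moved too. For 400 against 100 they ran from 318 to 517 (342 with no array left out), and for 200 against 100 from 367 to 729 (431). For 400 against 200 they ran from 289 to 620 (327), and for the slope from 358 to 616 (388).

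The methods' t-test also called 0 of 52 after adjustment in each comparison, with 3, 2 and 1 at an unadjusted p under 0.05. Of all 14217 genes, 408, 488 and 409 were at an unadjusted p under 0.05 in that test. A difference of over 1 log2 unit either way was found for 1, 5 and 2 of 52 motor genes, where 4.17%, 4.9% and 3.83% of all genes had one. The half-width of the 95% interval was 0.98 log2 units for the median motor gene, before any adjustment for the number of genes. Larger differences did not pass after adjustment either, such as 1.55 for Kif18a between 200 and 100 dendrites (limma adjusted p = 0.9999). With 3 arrays a group, the adjusted threshold could thus miss differences well above that half-width. The 400 against 100 and 200 against 100 comparisons share the arrays of 100 dendrites.

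**Figure D4:**
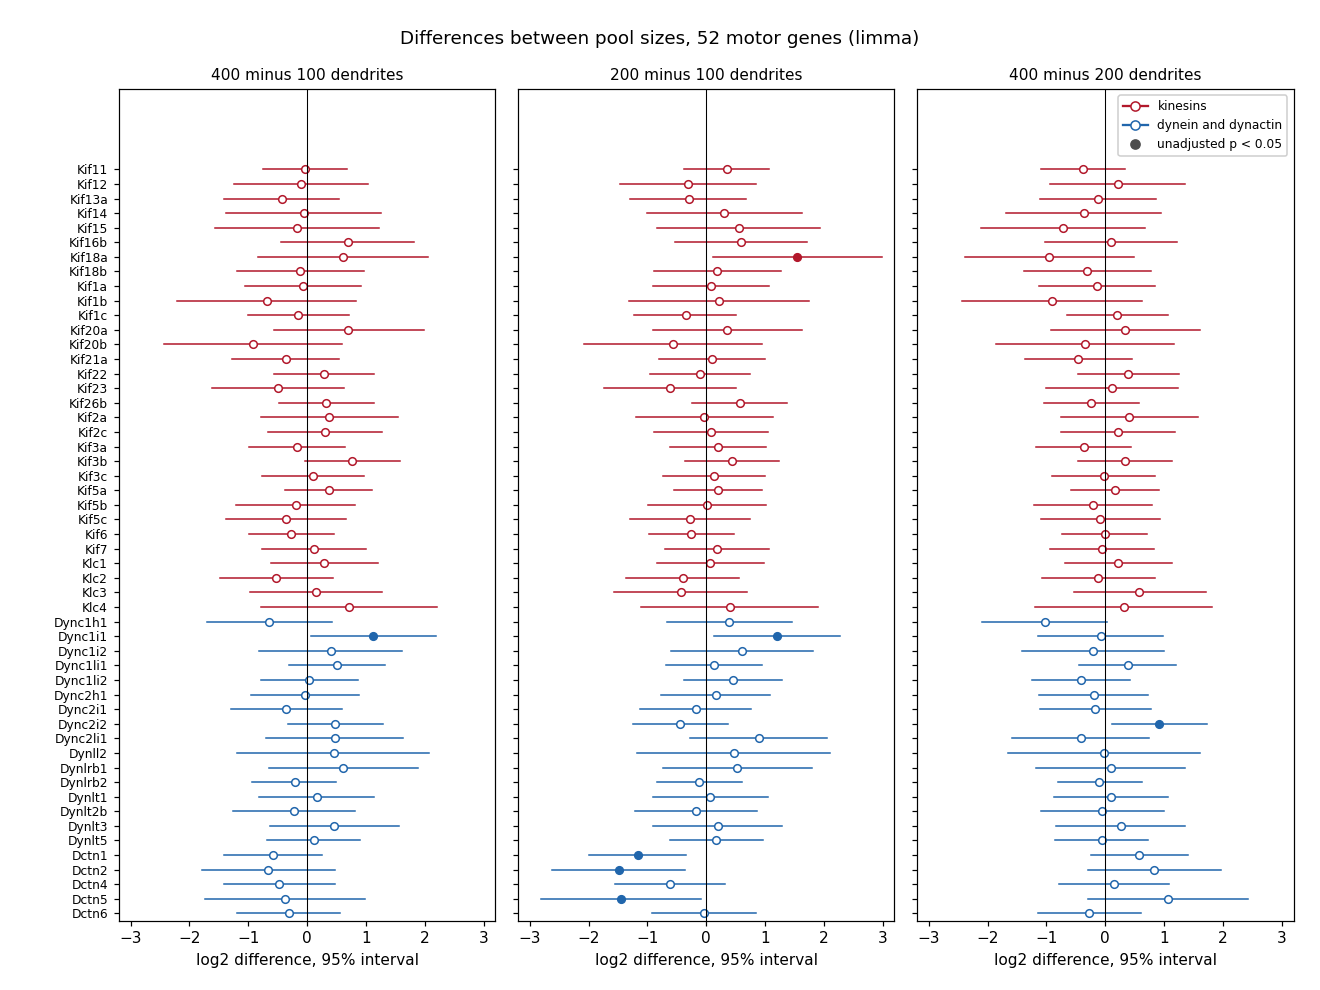
Difference in log2 signal between pool sizes for each of the 52 motor genes, with 95% intervals from limma, red for kinesins and blue for dynein and dynactin, where filled points have an unadjusted p under 0.05. Filled points number 1, 5 and 1 from left to right, and the 5 dynactin subunits at the bottom of the middle panel lie between -1.49 and -0.04.

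Between 400 and 100 dendrites, 25 motor genes were higher and 27 lower, where 51.5% of all genes were higher, with a median difference of -0.04 log2 units. Kinesins had a median of -0.06 (14 of 31 higher) and dynein and dynactin a median of 0.04 (11 of 21 higher). The arrays of the groups did not overlap for 4 of 52 genes (7.69%; 6.25% of all genes), of which Kif3b and Kif5a were higher with 400 dendrites and Dctn1 and Kif6 lower.

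Dync1i1, the neuronal intermediate chain, had the smallest p of these differences. It read 9.96, 10.10 and 10.09 in pools of 100, 10.91, 11.09 and 11.76 in pools of 200, and 10.02, 11.97 and 11.53 in pools of 400. The array of 400 dendrites, replicate 1, lay within the values of 100 dendrites, and all 3 arrays of 200 lay above them. The difference was 1.12 ± 0.49 (SE) for 400 against 100 (unadjusted p = 0.0407, limma adjusted p = 0.9991) and 1.21 ± 0.49 for 200 against 100 (unadjusted p = 0.03, limma adjusted p = 0.9999). Without replicate 1 of 400 dendrites the former was 1.70 and without replicate 2 it was 0.73.

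Kif3b, which pairs with Kif3a in the kinesin-2 motor, read 7.35, 6.93 and 7.27 with 100 dendrites, 7.54, 7.30 and 8.03 with 200, and 8.38, 7.86 and 7.62 with 400. In this gene value all 3 arrays of 400 lay above all 3 of 100. In each of its 2 probe sets alone the groups overlapped. The lowest array of 400 read 8.80 in one and 6.44 in the other, against 8.84 and 6.45 on the highest array of 100. The difference was 0.77 ± 0.37 (SE; 95% interval -0.03 to 1.58, limma adjusted p = 0.9991) and the slope 0.39 per doubling (unadjusted p = 0.0459, limma adjusted p = 0.9991). Its partner Kif3a differed by -0.17, and the third kinesin-2 gene, Kif3c, by 0.10.

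The next genes by p in this comparison were Dync1li1 on the higher side and Dctn1, Kif20b and Dync1h1 on the lower. Dync1li1 read 7.05, 7.17 and 7.50, then 7.61, 7.32 and 7.16, then 8.29, 7.70 and 7.25, a difference of 0.51 ± 0.37 (SE) between 400 and 100 dendrites. Kif20b read 8.78, 8.05 and 6.77, then 6.84, 7.50 and 7.56, then 5.74, 8.58 and 6.52, a difference of -0.92 ± 0.69. In both genes the groups overlapped. The difference of Kif20b was -0.46 without replicate 1 of 100 dendrites, -1.47 without replicate 3 of them, -0.32 without replicate 1 of 400 dendrites and -1.74 without replicate 2 of them. That of Dync1li1 ran from 0.24 to 0.76 with 1 array left out and that of Dync1h1 (-0.64 ± 0.49) from -0.93 to -0.34.

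Of the 11 dynactin subunits measured, the 5 with a Dctn symbol had differences below 0 between 200 and 100 dendrites, from -1.49 to -0.04 with a median of -1.16 log2 units, and 5 of the 6 others had differences above 0 (median 0.13), where 50.1% of all genes were higher. None of the 11 passed the adjusted threshold. Of all 52 motor genes 32 were higher in that comparison, with a median of 0.11, and the 16 dynein chains had a median of 0.18. Dctn1, Dctn2 and Dctn5 were among the 5 motor genes at an unadjusted p under 0.05 (limma adjusted p = 0.9999 for each).

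Dctn1 read 9.98, 9.62 and 9.64 in pools of 100, 8.03, 9.09 and 8.63 in pools of 200, and 9.43, 8.85 and 9.21 in pools of 400. Dctn2 read 8.47, 9.71 and 8.15, then 6.36, 7.98 and 7.52, then 8.28, 8.37 and 7.70. Dctn5 read 9.20, 8.54 and 8.21, then 5.91, 8.29 and 7.41, then 7.39, 9.24 and 8.17. For Dctn1 and Dctn2 every array of 200 dendrites lay below every array of 100, and for Dctn5 the groups overlapped by 1 array. Dctn4 read 9.46, 8.01 and 8.55, then 8.49, 7.71 and 7.97, then 8.30, 7.89 and 8.41, with overlap throughout.

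The differences between 200 and 100 dendrites were -1.16 ± 0.38 (SE) for Dctn1 (unadjusted p = 0.00995, limma), -1.49 ± 0.52 for Dctn2 (0.0142), -1.45 ± 0.62 for Dctn5 (0.0384), -0.62 for Dctn4 and -0.04 for Dctn6. With any 1 array left out, the difference ran from -1.41 to -0.89 for Dctn1, from -1.84 to -1.02 for Dctn2 and from -1.99 to -0.81 for Dctn5. Replicate 2 of 100 dendrites held the highest value of Dctn2 on any array (9.71). Replicate 1 of 200 dendrites held the lowest value of Dctn1, Dctn2 and Dctn5 on any array, and without it their differences were -0.89, -1.03 and -0.81. That array also had the lowest 3′ minus 5′ difference of the beta-actin control probe sets, a measure of how far RNA reaches toward its 5′ end (-0.43, against -0.35 to 2.41 on the other 8 arrays). The same measure from the GAPDH control did not set it apart (1.95, within the range of 0.84 to 2.99 over all 9 arrays), and the part of RNA length in these values was not tested. Between 400 and 200 dendrites 4 of 5 subunits were higher (median 0.58), and between 400 and 100 all 5 were lower (median -0.47). Of the 6 dynactin subunits outside the rule, 0 had an unadjusted p under 0.05 between 200 and 100 dendrites.

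Markers of interneurons differed between pool sizes in the same direction as the Dctn genes, and 0 of 13 passed the adjusted threshold. Between 200 and 100 dendrites 10 of 13 were lower, with a median difference of -0.44 log2 units. At an unadjusted p under 0.05 (limma) stood 3 of 13, where 3.03% of all genes did. Between 400 and 200 dendrites 8 of 13 were higher, with a median of 0.47. At an unadjusted p under 0.05 stood 2 of 13, where 2.30% of all genes did. Their median percentile ran from 26.8 to 57.2 over the arrays of 100 dendrites, from 26.5 to 28.8 over those of 200 and from 39.4 to 51.9 over those of 400. The defining markers Gad1, Gad2 and Slc32a1 were the lowest in rank, at 13.7, 15.6 and 11.6. Of the 13, 6 lay above the 50th percentile, up to Calb2 at 86.7. Mean log2 signal with 100 and 200 dendrites was 8.26 and 6.78 for Cck, 8.06 and 6.81 for Dlx1, and 7.47 and 6.31 for Vip. It was 6.09 and 6.07 for Gad1. The 3 markers that were higher with 200 dendrites included Tac1 (6.79 and 7.70). Astrocyte markers had a median difference of -0.35 between 200 and 100 dendrites with 6 of 11 lower, and pyramidal markers one of 0.04 with 5 of 15 lower. Endothelial markers were lower in 2 of 9 (median 0.10) and oligodendrocyte lineage markers in 5 of 12 (0.04). Microglial markers were lower in 6 of 12 (0.03) and mural cell and fibroblast markers in 5 of 11 (0.07). The part of other cell types in the dynactin values was not tested.

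**Figure D5:**
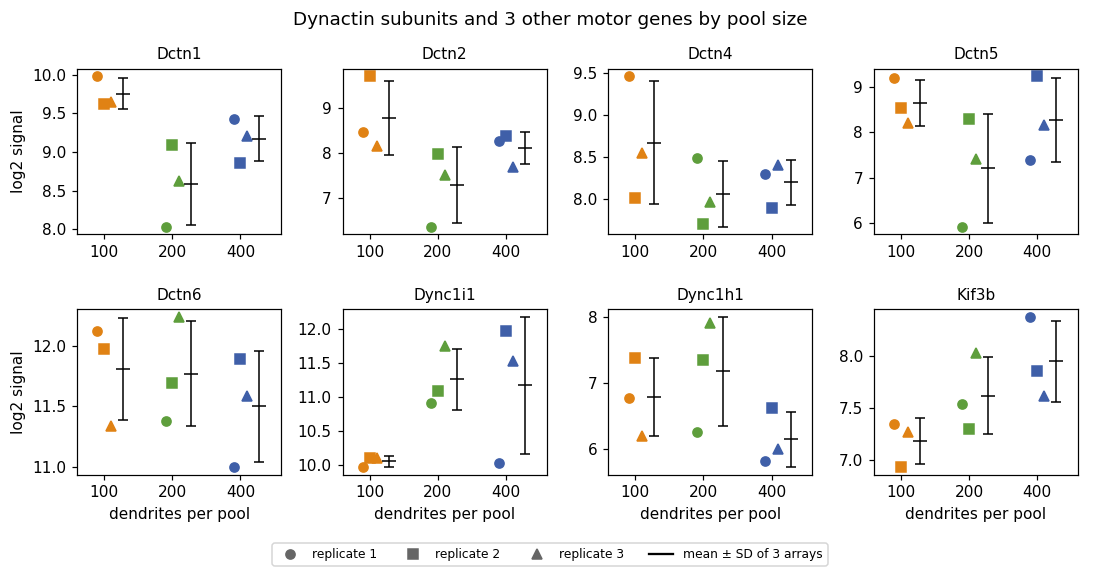
Log2 signal of the 5 dynactin subunits under the rule and of Dync1i1, Dync1h1 and Kif3b by pool size, 1 point per array with the replicate number as its shape, and mean ± SD of 3 arrays beside them. Dctn1 is between 9.62 and 9.98 with 100 dendrites and between 8.03 and 9.09 with 200, and the axis of each panel has its own range.

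In the same comparison the arrays did not overlap for 6 of 52 motor genes (11.5%; 7.80% of all genes). Dync1i1, Kif11 and Kif18a were higher with 200 dendrites and Dctn1, Dctn2 and Kif1c lower. In each probe set of Kif11 alone these groups overlapped. Kif18a differed by 1.55 ± 0.66 (SE; unadjusted p = 0.0366, limma adjusted p = 0.9999), which was 0.81 without replicate 3 of 200 dendrites. Dync2li1, with 8.02, 6.81 and 6.62 in pools of 100, 7.81, 8.50 and 7.81 in pools of 200 and 6.60, 7.79 and 8.47 in pools of 400, differed by 0.89 ± 0.53 and its groups overlapped.

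For 400 against 200 dendrites, 22 motor genes were higher and 30 lower, where 51.1% of all genes were higher, with a median of -0.05. Groups did not overlap for 3 of 52 (5.77%; 6.77% of all genes), of which Dync2i2 was higher with 400 dendrites and Dync1li2 and Kif11 lower. Dync2i2 read 7.55, 8.15 and 7.90 in pools of 100, 7.67, 7.13 and 7.47 in pools of 200 and 8.67, 7.85 and 8.52 in pools of 400, a difference of 0.92 ± 0.37 (SE; unadjusted p = 0.0286, limma adjusted p = 0.9994). Dync1h1 differed by -1.03 ± 0.49 (95% interval -2.09 to 0.03) and by -0.66 without replicate 3 of 200 dendrites. Dctn5 (1.07) and Dctn2 (0.83) came next among the higher genes, and were 0.42 and 0.37 without replicate 1 of 200 dendrites. Kif18a (-0.95) and Kif1b (-0.90) came next among the lower ones. They were -0.21 without replicate 3 of 200 dendrites and 0.10 without replicate 1 of 400, respectively.

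Subunits that work in 1 complex were compared over the 9 arrays in 14 pairs, to see whether their signals moved together. Of these, 9 had r above 0, the median r was 0.11, and 0 of 14 passed an adjusted p of 0.05 (exact permutation test, two-sided, lowest adjusted p 0.163 for Pearson's r and 0.311 for Spearman's rho). An unadjusted p under 0.05 for r was found in 3 of 14. Dctn1 and Dctn2 gave r = 0.77 (exact permutation p = 0.0172) and rho = 0.72 (exact permutation p = 0.0369). This r was 0.59 without the 2 arrays farthest from the median of Dctn1, and 0.44 between deviations from the pool size means.

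The light chain Klc1 had r above 0 with Kif5a and below 0 with Kif5b, and neither passed the adjusted threshold over 9 arrays. These signs hold for gene values, which merge probe sets that disagreed (gaps of 4.43 log2 units in Klc1 and 2.86 in Kif5b). On replicate 1 of 400 dendrites the gene value of Klc1 was its highest (9.80), but its highest probe set read 12.02, below its mean of 12.59. With Kif5a, r of Klc1 was 0.73 (exact permutation p = 0.0253) and rho 0.65 (exact permutation p = 0.0666), and with Kif5b, r was -0.70 (exact permutation p = 0.035) and rho -0.57 (exact permutation p = 0.121). Within pool sizes these r values were 0.73 and -0.69. Without the 2 arrays farthest from the median of Kif5a and of Kif5b, respectively, they were 0.41 and -0.18. Leaving out the end values of a gene narrows its range and tends to weaken r by itself. The smaller values thus do not show how far the correlations rested on those arrays. Without replicate 1 of 100 dendrites, Kif5b and Klc1 had r = -0.92 (exact permutation, adjusted p = 0.0236), the 1 pair to pass then. With Kif5c, r was 0.32 (exact permutation p = 0.398). The dynein heavy chain Dync1h1 had r = 0.26 with Dync1i1 and -0.62 with Dync1li1 (exact permutation p = 0.486 and 0.067), and Kif3a had r = 0.05 with Kif3b (exact permutation p = 0.899).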

How the data were processed

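RNA from pooled dendrites was amplified by the authors in several rounds and read on Affymetrix rat arrays. The deposited values are log2 signals per probe set, made by the authors with RMA 2.0 (submitters' processing notes), which subtracts background, equalises arrays and combines probes. Array medians ran from 7.46 to 7.53. The median centring of the study's methods is not in these values. Of 31099 probe sets, 57 Affymetrix controls were set aside and 20826 of the rest named 1 gene in the platform's table. Current symbols came from a match of Entrez IDs for 20758 and from the platform for 68. Genes were the median of such probe sets. No genome was used, so no positions are given.

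Pool sizes were compared with limma 3.58.1 in R 4.3.3 (lmFit and eBayes, 1 model of 9 arrays, two-sided, Benjamini-Hochberg over 14217 genes, threshold 0.05), which was tested on simulated data. Genes were ranked by median rank over arrays. Pairs of subunits were tested by exact permutation of the 362880 orders of arrays. Full values are given for the 3 highest and 2 lowest genes of each class, the 3 of smallest p in each direction of each comparison, and the 3 of largest and smallest residual SD. The motor genes, lists and pairs were chosen with earlier results of these data known. Alternatives were the probe set of highest mean, quantile normalization, the scaling of the study's methods, the upper part of genes by mean signal, trend and robust variance, the methods' t-test, the replicate number as a block, array weights, limma over probe sets and list ranks by the highest probe set (these 3 chosen after seeing the data), other rank limits, and leaving out each array. The number of arrays limits the precision, and p-values measure the spread between these arrays, which may be technical. Python 3.11.15, numpy 2.4.6, pandas 2.3.3, scipy 1.17.1 and matplotlib 3.10.9 were used.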

Additional observations from a re-analysis of the deposited data

Results flagged for a closer look

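Over 9 arrays, 2 of 52 motor genes had an end value that stood apart from the other 8 by Dixon's test (3.85%, against 9.21% of all genes, where chance alone gives about 1 in 20). Kif1b was 6.99 on replicate 1 of 400 dendrites, with the nearest other array at 9.02. Dctn4 was 9.46 on replicate 1 of 100 dendrites, with the nearest other array at 8.55.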

How the results depend on the processing

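In every comparison of pool sizes, 0 of 52 motor genes (0 of their 83 probe sets in the fit over probe sets) passed the adjusted threshold under each alternative run. Replicate numbers did not pair the arrays: deviations from the group means of same-numbered arrays had r of -0.19 to 0.09 (0 of 9 pairs over 0.1), and with the number as a block 0 motor genes passed in each comparison, without change of any call. The 18 named differences were picked for their small p in these same arrays, so a kept direction under the alternatives is largely set by that choice. Of 300 values of these differences under the alternatives, 299 kept their direction. The exception was Kif1b, 400 against 200 dendrites, which was 0.10 without replicate 1 of 400 dendrites (range -1.44 to 0.10 with 1 array left out). With the probe set of highest mean, 1 kinesin (Klc1) was in the top 5% and Dync1i1 was not, the median percentile was 53.3 for kinesins and 58.1 for dynein and dynactin, and the median SD of the latter was 0.61. Wider rank limits hold more of all genes by construction. The top 10% held 8 of 52 motor genes (2 kinesins and 6 dynein and dynactin genes). The top 2000 of 14217 genes held 10 of 52 (3 and 7). The methods' scaling, in another unit, gave median SDs of 0.14 for kinesins and 0.13 for dynein and dynactin. With 1 array left out, the top 5% held 4 to 5 motor genes, the median SD was 0.43 to 0.60 for kinesins, and 0 to 1 subunit pairs passed: without replicate 1 of 100 dendrites, Kif5b and Klc1 had r = -0.92 (exact permutation, adjusted p = 0.0236). Their cause was not tested.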
